A study of Homo sapiens with 9 samples.

Results

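The 34 genes described here belong to the ATF4 arm of the integrated stress response in OPM-1, a human multiple myeloma (plasma cell tumour) line. They were chosen by name from the 38478 genes of the deposited table, and 29 of the 34 passed the filter on low counts that left 13262 genes for testing. By role they comprised ATF4 and bZIP transcription factors that work with it (ATF3, ATF5, DDIT3, CEBPB, CEBPG, JDP2), stress effectors and feedback genes (DDIT4, TRIB3, CHAC1, SESN2, PPP1R15A, NUPR1), enzymes of amino acid and one-carbon synthesis (ASNS, PHGDH, PSAT1, PSPH, SHMT2, MTHFD2, ALDH18A1, PYCR1, CTH, CBS), amino acid transporters (SLC7A11, SLC7A5, SLC3A2, SLC7A1, SLC1A5, SLC1A4, SLC38A2), and XPOT, STC2, VEGFA and VLDLR. The list of names held no aminoacyl-tRNA synthetase, so the 20 cytosolic synthetase genes, a family that includes known ATF4 targets, are described beside it. Poly(A) RNA was sequenced from 9 libraries, 3 in each of 3 groups, and the labels call the 3 of a group independent biological replicates. All groups were OPM-1 cells of labelled genotype WT grown in RPMI with FBS and stably expressing RNAs named for their targets. The control group gLuc carried the luciferase-targeting RNA, the group gFBXW7 the one against FBXW7, and the group gFBXW7_gKMT2D those against FBXW7 and KMT2D. How these RNAs act, and whether each line was a clone or a pool, was not given in the labels. FBXW7 is the substrate-binding part of a ubiquitin ligase, and KMT2D is a methyltransferase of histone H3.

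ATF4 is translated when kinases that sense unfolded proteins, amino acid shortage, haem shortage or double-stranded RNA phosphorylate the initiation factor eIF2. It pairs with C/EBP family proteins, binds a composite element in promoters, and raises the supply of amino acids by inducing their synthesis, their uptake and the charging of tRNAs. Plasma cells secrete large amounts of immunoglobulin, and unfolded proteins are among the signals that the kinases of this pathway sense. Because ATF4 is controlled mainly through translation, its mRNA level alone does not report how much ATF4 protein a cell holds.

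Promoters of 28 of the 34 genes were found in RefSeq (build GRCh38.p14, 300 bases each, 250 before the gene start and 50 after). The core of the C/EBP-ATF response element was searched as TGATGNAA on both strands, where N is any base, so that a copy on the other strand reads TTNCATCA. It occurred for 9 of the 28 genes (32.1%), against 4.46% of the 27305 genes with a promoter in the table. A gene was counted if any of its listed promoters held the element, and some genes have several. The stretches that hold it are printed 5′ to 3′ on the gene's strand with the element in capitals, because they show that regulators (CEBPG, ATF3, JDP2) and transporters carried the same core. The first 2 lines give whole upstream regions, of ASNS, the asparagine synthetase (chr7:97872409-97872658, minus strand), and of CHAC1, which degrades glutathione (chr15:40953221-40953470, plus strand).
ASNS: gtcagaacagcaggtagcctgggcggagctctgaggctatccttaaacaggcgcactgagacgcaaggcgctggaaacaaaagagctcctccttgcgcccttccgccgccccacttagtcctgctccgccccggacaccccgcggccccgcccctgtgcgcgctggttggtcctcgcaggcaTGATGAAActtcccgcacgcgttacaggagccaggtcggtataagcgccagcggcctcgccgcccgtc
CHAC1: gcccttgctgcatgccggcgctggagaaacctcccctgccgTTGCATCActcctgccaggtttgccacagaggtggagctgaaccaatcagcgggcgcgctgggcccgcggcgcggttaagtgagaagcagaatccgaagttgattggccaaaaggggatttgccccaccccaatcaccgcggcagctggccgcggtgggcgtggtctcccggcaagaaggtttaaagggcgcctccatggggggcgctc
CEBPG (chr19:33374060-33374089, plus strand): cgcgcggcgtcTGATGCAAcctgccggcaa
ATF3 (chr1:212565205-212565234, plus strand): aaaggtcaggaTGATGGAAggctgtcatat
JDP2 (chr14:75427995-75428024, plus strand): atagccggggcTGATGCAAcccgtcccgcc
SLC1A5 (chr19:46784893-46784922, minus strand): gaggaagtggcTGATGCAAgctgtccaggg
SLC7A1 (chr13:29595663-29595692, minus strand): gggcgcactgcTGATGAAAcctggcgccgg
SLC1A4 (chr2:64989381-64989410, plus strand): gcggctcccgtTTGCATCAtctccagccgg
SLC3A2 (chr11:62881725-62881748, plus strand): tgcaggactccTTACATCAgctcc

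The element began 68 bases before the RefSeq start used for ASNS, 209 before that of CHAC1, 97 before that of SLC1A5 and 42 before that of CEBPG. The starts of these genes are not the outer ends of their GENCODE spans, and their elements lie within those spans. For ATF3 and JDP2 the element began 191 and 16 bases before the start. For SLC1A4 it began 7 bases before and reached the start. For SLC7A1 and SLC3A2 it lay downstream, beginning 7 and 37 bases after the start. Among the cytosolic synthetases the element was found in promoters of 7 of 16 genes, of which 3 that read TTGCATCA are printed. AARS1 and TARS1 read the same, NARS1 holds it on the other strand, and GARS1 reads TTTCATCA. The printed copies of CARS1 and MARS1 span the RefSeq start.
CARS1 (chr11:3057407-3057436, minus strand): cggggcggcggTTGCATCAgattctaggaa
MARS1 (chr12:57488053-57488082, plus strand): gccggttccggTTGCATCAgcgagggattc
IARS1 (chr9:92293692-92293721, minus strand): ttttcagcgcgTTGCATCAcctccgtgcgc
The E-box CACGTG, which MYC and related factors bind, may lie beside or within other elements. It was found for 4 of the 28 genes (14.3%, ATF4, ALDH18A1, SLC7A5 and SLC1A5), against 8.77% of all genes. The endoplasmic reticulum stress element ERSE, searched on both strands, was in none of the 28, against 0.0916% of all genes. These matches describe the letters in the window only.

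OPM-1 had the plasma cell identity of its label, with all 9 plasma cell markers past the filter and a summed level of 3474 to 4149 CPM (counts scaled to the TMM-adjusted size of each library) over the libraries. The T and NK cell, myeloid and epithelial lists had no marker past the filter. BACH2 of the mature B cell list (list sum 15.0 to 23.4 CPM), HBB of the erythroid list (21.8 to 43.7) and PECAM1 of the stromal and endothelial list (0.561 to 2.14) each passed. Libraries held 16337492 to 27076242 counts, and FBXW7 mRNA stood at 47.9 to 53.8 CPM in gLuc, 53.3 to 55.5 in gFBXW7 and 45.2 to 71.6 in gFBXW7_gKMT2D, so mRNA level did not separate the targeted group from the control. KMT2D mRNA ranged from 40.9 to 104 CPM in gLuc and from 28.6 to 107 in gFBXW7_gKMT2D. The library gFBXW7_gKMT2D 3 stood apart, with ribosomal protein mRNAs at 11.2% of counts against 5.03% to 8.56% in the other 8.

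Compared per length of transcript, the members ran from 0 to 389.7 RPKM. ATF4 itself was the most abundant of them, at a mean of 389.7 RPKM over the 9 libraries (303.6 to 440.9). The glutamine transporter SLC1A5 followed at 322.9 RPKM (219.4 to 386.4), and the ranges of both overlapped. MTHFD2 (217.7 RPKM), a mitochondrial folate enzyme, PYCR1 (144.5), which makes proline, SHMT2 (138.8), which splits serine into glycine and a one-carbon unit, and SLC3A2 (132.2), the partner chain of several transporters, completed the 6 members above 100 RPKM. The neighbours PYCR1, SHMT2 and SLC3A2 differed in mean by less than their ranges over libraries.

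SLC7A5 (82.5 RPKM), the large neutral amino acid exchanger that pairs with SLC3A2, DDIT4 (68.7), an inhibitor of mTORC1, ASNS (52.4) and the transporter SLC38A2 (50.3) came next. SLC1A4 (41.5 RPKM), XPOT (40.7), which exports tRNAs from the nucleus, ALDH18A1 (38.4), the first enzyme of proline synthesis, PSPH (27.4) and the arginine transporter SLC7A1 (27.4) lay below them. SESN2, CEBPB and CEBPG stood within 22.6 to 23.8 RPKM, and PPP1R15A (15.2), VEGFA (14.3), DDIT3 (13.2), TRIB3 (13.0), ATF5 (8.85), CTH (7.75), SLC7A11 (7.45), CHAC1 (4.08) and ATF3 (1.51) were lower. For CHAC1 and CEBPB the table's gene length (6084 and 2108 bases) exceeds the annotated span (3558 and 1956), so their RPKM is uncertain. At the low end 7 members averaged under 1 RPKM, among them STC2 (0.408) and JDP2 (0.0486), which still passed the filter with 383 and 94 reads in all.

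The serine synthesis pathway was incomplete at the mRNA level in every group. PHGDH, its first enzyme (chr1:119648411-119744226, GRCh38), had 0 reads in all 9 libraries, where 3 reads, the limit that a count of 0 allows, would be 0.0446 to 0.0738 RPKM. PSAT1, the second enzyme (chr9:78297143-78330093), had 19 reads in all and at most 4 in a library. PSPH, the third, had 15799 reads and a level between 23.2 and 30.3 RPKM, so the last step was expressed while the first was not detected at this depth. SHMT2, which splits serine downstream, and the folate enzyme MTHFD2 held 68367 and 86003 reads. CBS, which starts the transsulfuration of homocysteine, had 4 reads, but its near-identical copy CBSL had 3 and the authors' counting may divide or drop reads that match both, so its level is uncertain. CTH, the next enzyme of that route, was expressed at 6.46 to 10.4 RPKM. NUPR1, a stress-induced cofactor, had 1 read and VLDLR, a lipoprotein receptor, had 7.

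**Figure D1:**
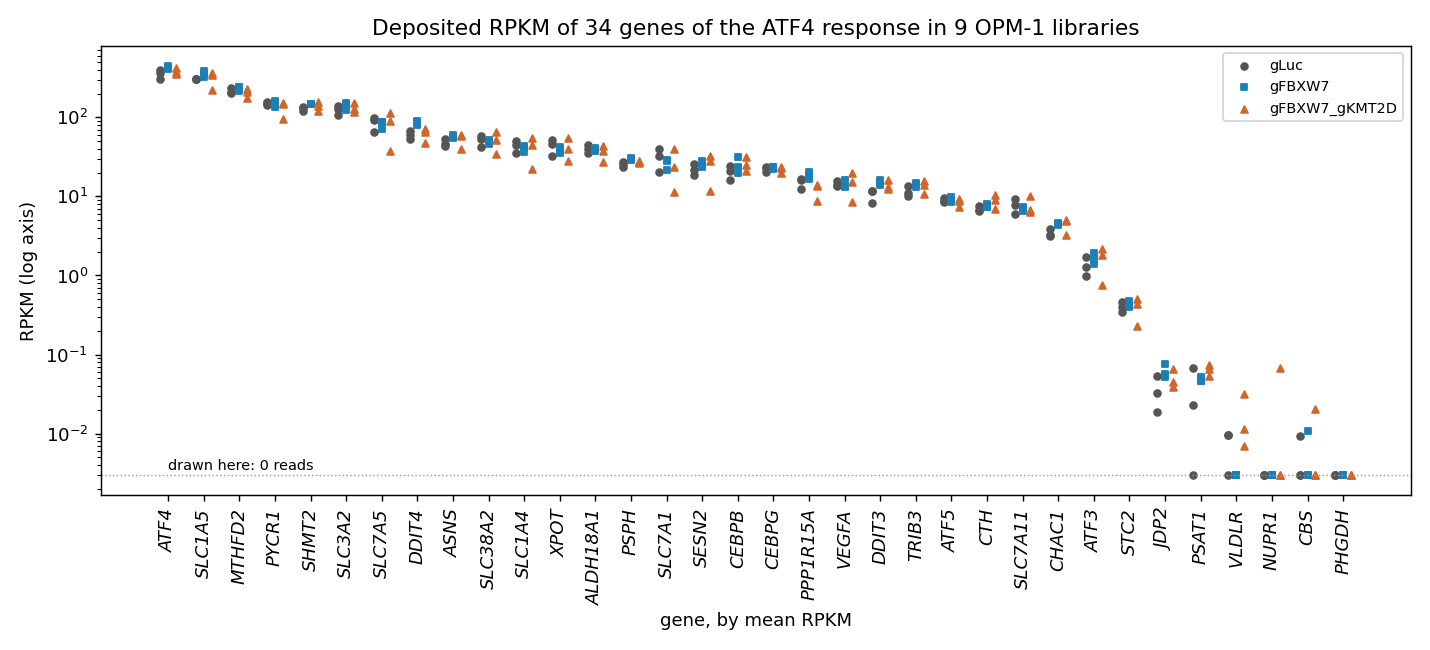
Deposited RPKM on a log axis for the 34 genes, ordered by mean, with 1 point for each of the 9 libraries and markers by group (points for 0 reads are drawn on the dotted line). ATF4 and SLC1A5 lie at the top, above 200 RPKM in every library, and PSAT1, VLDLR, NUPR1, CBS and PHGDH lie at or near 0 in all 3 groups.

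In gFBXW7 against gLuc, the comparison that asks what the RNA against FBXW7 does, no member passed the test at an adjusted p of 0.05, and neither did any other gene (0% of the 13262 genes called by edgeR's quasi-likelihood test, adjusted p of every member 0.956 or above). At an unadjusted p under 0.05, 5 members were higher (DDIT3, DDIT4, CHAC1, ASNS and JDP2) and 0 lower, against 0.648% and 0.927% of all genes (1.58% in both directions). The fitted value was higher in gFBXW7 for 24 of the 29 members, against 49.3% of all genes. Their median log2 fold change was 0.23, against -0.00 over all genes, and it was 0.11 without gLuc 3 and 0.15 without gFBXW7 1. In 9 members (31.0%) every gFBXW7 library lay above every gLuc library, against 4.37% of all genes, and 0 lay below, against 4.48%. The 5 members became 2 without gLuc 3 or gFBXW7 2 and 3 without gFBXW7 1 or gFBXW7 3. The share of all genes at that p was not counted with a library left out, so these counts are not read as results about the members. Without gLuc 1 the 9 above became 15 (26.5% of all genes) and the 0 below became 5 (27.4%). In bulk RNA, a change in RNA per cell and a change in the share of cells cannot be told apart.

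Of the transcription factors, all 7 had a higher fitted value in gFBXW7, with a median log2 fold change of 0.31. ATF4 (chr22:39519695-39522685) read 1025, 878 and 711 CPM in gLuc and 1121, 1102 and 1006 in gFBXW7. The groups overlapped only through gLuc 1, and the log2 fold change was 0.30 (SE 0.18). DDIT3, which encodes the pro-apoptotic factor CHOP (chr12:57516588-57521737), had 14.1, 13.2 and 9.10 CPM in gLuc and 18.4, 18.8 and 16.04 in gFBXW7. Here the groups did not overlap, and the log2 fold change of 0.55 (SE 0.19, unadjusted p = 0.016, adjusted p = 0.96) was the largest among members of at least 2 on the log2 CPM scale. ATF3, a repressor induced by many stresses, overlapped, at 3.97, 6.38 and 4.67 CPM against 5.56, 7.43 and 6.16 (log2 fold change 0.35, SE 0.30).

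CEBPG, a partner of ATF4 in binding the composite element, read 81.0, 87.5 and 82.4 CPM in gLuc and 89.1, 92.0 and 88.6 in gFBXW7. The groups separated with a log2 fold change of 0.10 (SE 0.10), and CEBPG varied least of all members within groups. JDP2, a bZIP repressor, stayed near the detection limit, at 4, 10 and 7 reads in gLuc and 11, 14 and 12 in gFBXW7. Its log2 fold change of 0.86 (SE 0.38) rests on these few reads. CEBPB, at 53.1, 42.4 and 32.0 CPM against 68.3, 41.1 and 48.2, and ATF5, with a log2 fold change of 0.04, overlapped between the groups.

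All 5 tested stress effectors had higher fitted values in gFBXW7, with a median of 0.34. DDIT4 (chr10:72273920-72276036) read 122, 101 and 86.6 CPM in gLuc and 154, 155 and 138 in gFBXW7, for group means of 103.1 ± 18.0 and 149.1 ± 9.70 (SD, n = 3). The groups were apart, with a log2 fold change of 0.53 (SE 0.16, unadjusted p = 0.0070, adjusted p = 0.96). CHAC1 (chr15:40952962-40956519) read 20.2, 22.4 and 17.8 CPM against 27.2, 28.4 and 26.3, again without overlap, and its log2 fold change was 0.44 (SE 0.14, unadjusted p = 0.010). TRIB3, a pseudokinase that dampens ATF4 and AKT signalling, read 36.9, 41.57 and 30.8 CPM against 47.5, 46.9 and 41.59. The value of gLuc 2 and that of gFBXW7 3 were almost equal, and the log2 fold change was 0.32 (SE 0.15). PPP1R15A, which directs the phosphatase that reverses eIF2 phosphorylation, overlapped at 40.5, 37.1 and 27.6 CPM against 45.4, 48.6 and 38.7 (0.34, SE 0.18). SESN2, an inhibitor of mTORC1 that responds to leucine, also overlapped, with a log2 fold change of 0.24 (SE 0.26).

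The 7 tested synthesis genes also had higher fitted values throughout, by a median of 0.17. ASNS (chr7:97852118-97872542) read 114, 128 and 107 CPM in gLuc and 147, 150.3 and 136 in gFBXW7, a log2 fold change of 0.31 (SE 0.13, unadjusted p = 0.044). Every gFBXW7 library lay above the highest gLuc library. PSPH separated too, at 87.6, 87.3 and 73.2 CPM against 100.3, 102 and 98.6 (log2 fold change 0.28, SE 0.14), as did SHMT2, at 385, 372 and 323 CPM against 433, 427 and 417 (0.24, SE 0.13). Both act in the serine and glycine branch, where PHGDH had no read. MTHFD2 (0.14), CTH (0.17), PYCR1 (0.05) and ALDH18A1 (0.02) overlapped between the groups.

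**Figure D2:**
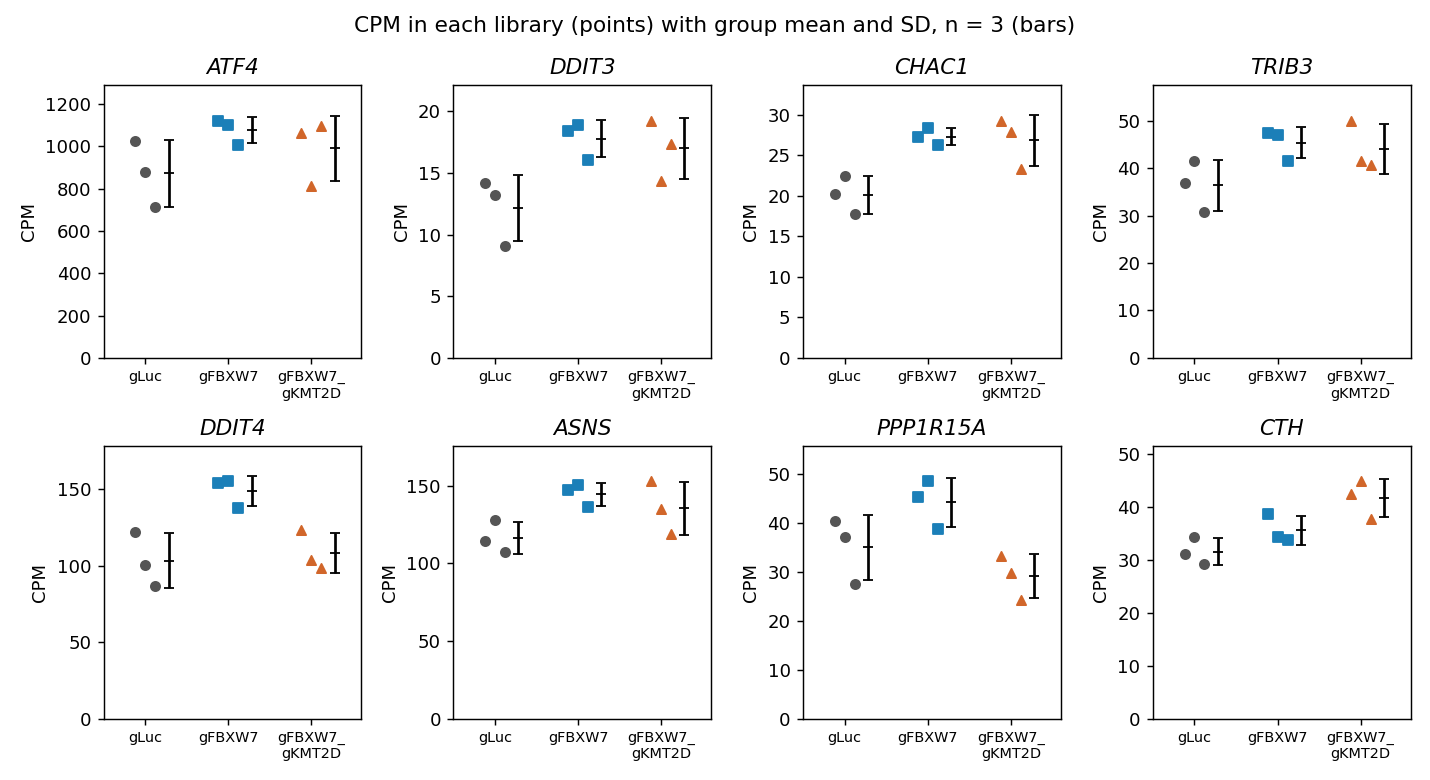
CPM of ATF4, DDIT3, CHAC1, TRIB3, DDIT4, ASNS, PPP1R15A and CTH in each library (points, axes from 0) with the group mean and SD (n = 3) beside them. The gFBXW7 points of DDIT3, DDIT4, CHAC1, TRIB3 and ASNS lie above all gLuc points, and those of PPP1R15A and DDIT4 lie above all gFBXW7_gKMT2D points.

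The transporters had the lowest median of the roles, at -0.01, with 3 of 7 fitted values higher and 4 lower. The median of XPOT, STC2 and VEGFA was close to it, at 0.04. No transporter separated the groups. The lowest fitted values among all members were those of SLC7A1 (log2 fold change -0.18, SE 0.33), XPOT (-0.14, SE 0.19), SLC7A11 (-0.09, SE 0.17), the cystine importer, and SLC1A4 (-0.07, SE 0.23). Without gLuc 3 those of SLC7A1, SLC7A11 and SLC1A4 turned positive. SLC7A1 read 162, 240.3 and 292 CPM in gLuc, a spread wider than its difference from the 174, 220.4 and 219 in gFBXW7. SLC1A5 was the highest of the transporters, with 1257, 1151 and 1126 CPM against 1425, 1526 and 1252 and a log2 fold change of 0.25 (SE 0.17). STC2 (0.15) and VEGFA (0.04), which encode secreted proteins, overlapped.

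**Figure D3:**
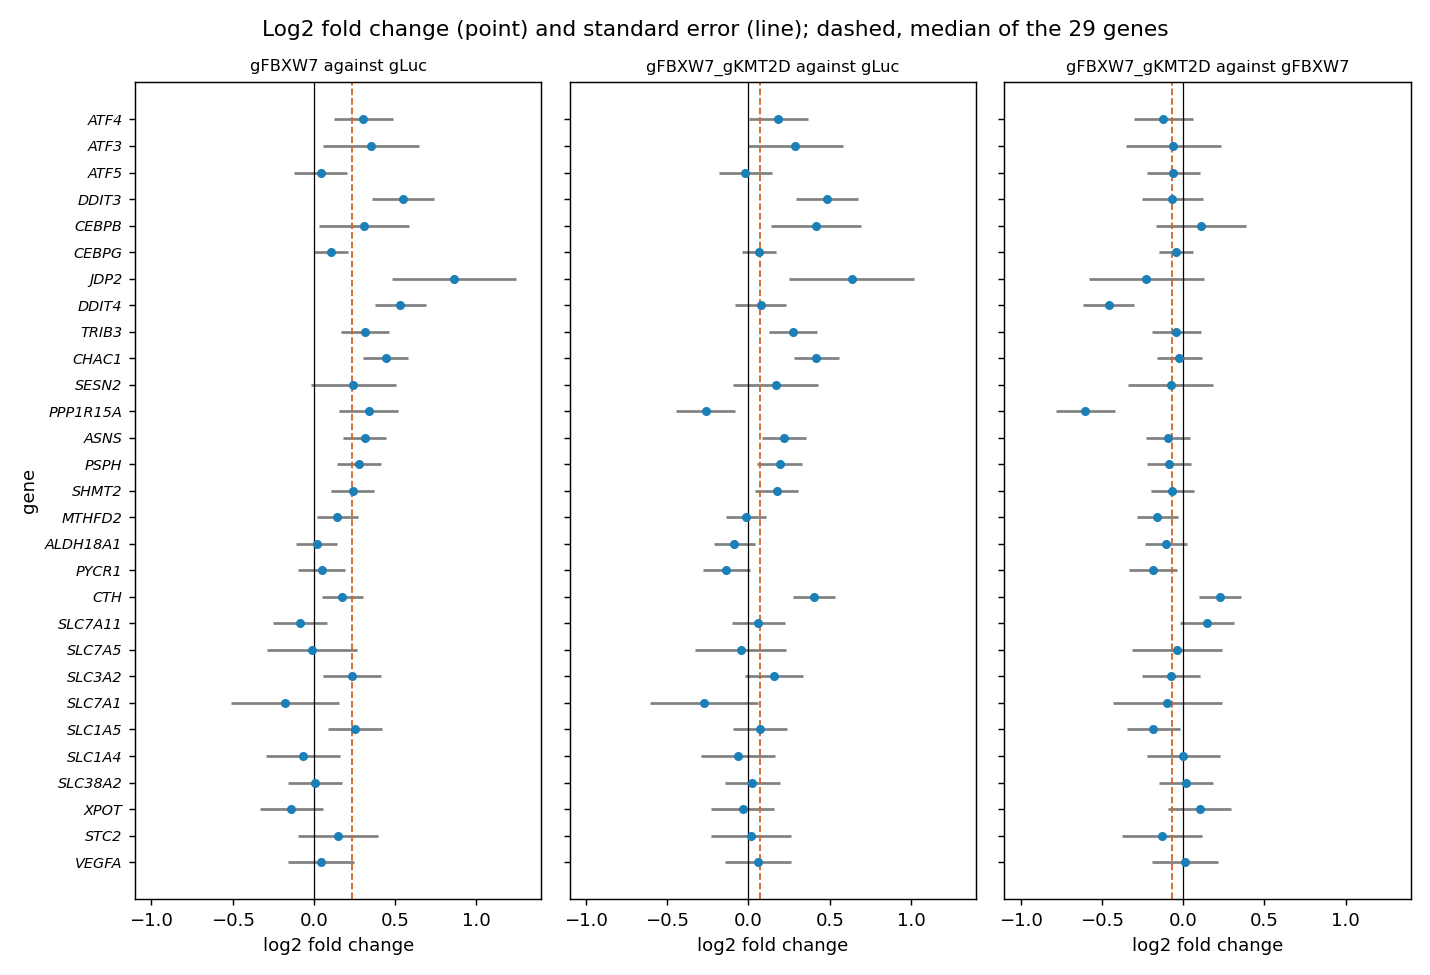
Log2 fold change (point) and standard error (line) of the 29 tested members in the 3 comparisons, with their median dashed. In gFBXW7 against gLuc most points lie right of 0 (24 of 29), in gFBXW7_gKMT2D against gFBXW7 most lie left of it (22 of 29), and PPP1R15A and DDIT4 lie farthest left there among members with a mean log2 CPM of at least 2.

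Transcript length moved with these differences. Over all 13262 genes, the Spearman correlation of the table's gene length with the log2 fold change was -0.42 in gFBXW7 against gLuc, and over the 29 members it was -0.43 (across genes, which are not independent). Of the 15 members of at most 3771 bases, all 15 had a higher fitted value in gFBXW7, with a median of 0.28. Of all genes of that length, 67.6% did, with a median of 0.09. Of the 14 longer members 9 did, with a median of 0.07, against 32.2% and -0.09 of the longer genes. CHAC1 was counted among the longer by its table length, and its annotated span would put it among the shorter. The part of transcript length in the differences between groups was not tested.

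In gFBXW7_gKMT2D against gLuc, which sets both RNAs together against the control, no member was called either, beside 7 genes called overall (0.0528%; members' adjusted p 0.90 or above). At an unadjusted p under 0.05, 3 members were higher (CTH, CHAC1 and DDIT3) and 0 lower, against 2.14% and 1.47% of all genes (3.61% in both directions). The fitted value was higher for 20 of 29, against 50% of all genes, with a median log2 fold change of 0.07 against 0.00. Every gFBXW7_gKMT2D library lay above every gLuc library for the same 3 members, against 3.28% of all genes, and 0 members lay below, against 3.7%. Without gFBXW7_gKMT2D 3, 25 members had a higher fitted value, the median was 0.17, 6 had an unadjusted p under 0.05 in the higher direction and 8 lay above every gLuc library (7.34% of all genes). In the higher direction 1 member passed that p without gLuc 3 or gFBXW7_gKMT2D 1. In the lower direction 1 member passed it without gLuc 3, and 1 without gFBXW7_gKMT2D 2 (SLC7A1, log2 fold change -0.69). Shares of all genes at that p were not counted with a library left out, so these counts are not read as results. The median was 0.12 without gLuc 1 and 0.04 without gFBXW7_gKMT2D 2. Above every gLuc library lay 7 without gLuc 2 (4.7% of all genes) and also 7 without gFBXW7_gKMT2D 2 (12.1%). Below lay 1 without gFBXW7_gKMT2D 1 (6.23%), gFBXW7_gKMT2D 3 (6.81%) or gLuc 3 (5.84%).

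CTH (chr1:70411218-70439851), which makes cysteine from cystathionine, read 31.1, 34.3 and 29.2 CPM in gLuc and 42.4, 44.9 and 37.7 in gFBXW7_gKMT2D. All 3 libraries stood above the control, with a log2 fold change of 0.40 (SE 0.13, unadjusted p = 0.011, adjusted p = 0.90). CHAC1 read 29.3, 27.9 and 23.3 CPM against the gLuc values above, with the lowest of them just over the highest control (22.4), and a log2 fold change of 0.42 (SE 0.14, unadjusted p = 0.013). DDIT3 read 19.2, 14.4 and 17.4 CPM, the lowest close to the 14.1 of gLuc 1, for a log2 fold change of 0.48 (SE 0.19, unadjusted p = 0.029). Its mean was 12.2 ± 2.68 CPM in gLuc, 17.8 ± 1.51 in gFBXW7 and 17.0 ± 2.45 in gFBXW7_gKMT2D (SD, n = 3). DDIT3 and CHAC1 were the 2 members with both targeted groups above the control, as were 89 of all genes (0.671%), and both comparisons share the gLuc libraries.

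ATF4 read 1063, 812 and 1093 CPM and overlapped with gLuc (0.18, SE 0.18, and 0.11 without gFBXW7_gKMT2D 3). ASNS, at 153, 135 and 119 CPM (0.22, SE 0.13), and TRIB3, at 50.05, 41.5 and 40.6 CPM (0.28, SE 0.15), overlapped as well. CEBPB had a log2 fold change of 0.42 (SE 0.28) with a wide spread, at 52.1, 41.1 and 77.1 CPM, the highest value being that of gFBXW7_gKMT2D 3, and without that library it was 0.13. The lowest fitted values belonged to SLC7A1 (-0.27, SE 0.33), PPP1R15A (-0.26, SE 0.18), PYCR1 (-0.14, SE 0.15) and ALDH18A1 (-0.09, SE 0.13). Without gFBXW7_gKMT2D 3 those of SLC7A1 and ALDH18A1 turned to 0.03 and 0.01, and those of PPP1R15A and PYCR1 were -0.15 and -0.02.

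In gFBXW7_gKMT2D against gFBXW7, the comparison of the added RNA against KMT2D, 0 of 29 members were called, beside 8 genes overall (0.0603%). At an unadjusted p under 0.05, 2 members were lower (PPP1R15A and DDIT4) and 0 higher, against 1.92% and 2.3% of all genes (4.22% in both directions). The fitted value was lower for 22 of 29 members and higher for 7, against 54.6% of all genes higher. The median log2 fold change was -0.07, against 0.02. In 3 members every gFBXW7_gKMT2D library lay below every gFBXW7 library, against 5.21% of all genes, and 0 lay above, against 4.35%. Without gFBXW7 2, 1 member was lower at that p, 12 had a higher fitted value and the median was -0.02. Without gFBXW7_gKMT2D 3, 1 member was higher at that p, 13 had a higher fitted value and the median was -0.01. Counts at that p with a library left out have no share of all genes beside them and are not read as results. The median was -0.14 or -0.13 without gFBXW7_gKMT2D 1 or 2. The members below numbered 7 without gFBXW7_gKMT2D 1 (9.21% of all genes), 5 without gFBXW7_gKMT2D 2 (12.8%), 6 without gFBXW7_gKMT2D 3 (14.7%) and 5 without gFBXW7 3 (8.37%). Without gFBXW7_gKMT2D 3, 5 members also lay above, as did 13.4% of all genes.

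PPP1R15A (chr19:48872392-48876057) read 45.4, 48.6 and 38.7 CPM in gFBXW7 and 33.2, 29.9 and 24.3 in gFBXW7_gKMT2D, with means of 44.2 ± 5.01 and 29.1 ± 4.50 (SD, n = 3). The groups were apart, and the log2 fold change was -0.60 (SE 0.18, unadjusted p = 0.0079, adjusted p = 0.94, the lowest of the members). Over all 19 alternatives it lay between -0.71 and -0.48. DDIT4 read 154, 155 and 138 CPM against 123, 104 and 98.3, also apart, with a log2 fold change of -0.46 (SE 0.16, unadjusted p = 0.015) and a range of -0.56 to -0.39 over the same alternatives. In gFBXW7_gKMT2D, DDIT4 averaged 108.5 ± 13.2 CPM, beside 103.1 ± 18.0 in gLuc. MTHFD2, at 563, 496 and 537 CPM against 479, 481 and 469, was the third member with no overlap (-0.16, SE 0.13).

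CTH (0.23, SE 0.13), SLC7A11 (0.15, SE 0.17), CEBPB (0.11, SE 0.28) and XPOT (0.10, SE 0.19) had the highest fitted values of this comparison. PYCR1 (-0.18, SE 0.15) and SLC1A5 (-0.18, SE 0.17) followed DDIT4 at the low end. Without gFBXW7_gKMT2D 3, CEBPB turned to -0.17, XPOT was 0.25, and PYCR1 and SLC1A5 were -0.06 and -0.05. ATF4 (-0.12), ASNS (-0.09), DDIT3 (-0.07), TRIB3 (-0.04) and CHAC1 (-0.02) differed by less than their standard errors (0.18, 0.13, 0.19, 0.15 and 0.14). Of the 5 effectors, 0 had a higher fitted value, and 3 did without gFBXW7_gKMT2D 3.

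Within groups the members varied with a median SD of 0.21 on the log2 CPM scale. SLC7A1 varied most (0.50), followed by ATF3 (0.43), SLC7A5 (0.41), CEBPB (0.40) and SESN2 (0.39), and CEBPG least (0.045). From gFBXW7_gKMT2D 2 to gFBXW7_gKMT2D 3, log2 CPM differed by -1.47 for SLC7A1, -1.23 for SLC7A5, -1.15 for SESN2 and -1.12 for ATF3, and by 0.43 for ATF4 and 0.91 for CEBPB. SLC7A5, the most abundant of these transporters, read 482, 559.9 and 239 CPM in that group. The transporters as a list had a median deviation from their 9-library means of 0.32 in gFBXW7_gKMT2D 2 and -0.32 in gFBXW7_gKMT2D 3.

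This spread also moved with transcript length. In each library, the deviation of the 29 members from the other libraries of their group correlated with length at a Spearman rho of -0.69, 0.23 and 0.73 in gLuc 1 to 3, -0.46, 0.06 and 0.42 in gFBXW7, and -0.21, 0.72 and -0.52 in gFBXW7_gKMT2D. Over all 13262 genes the values had the same sign in every library (-0.49, 0.13 and 0.50, then -0.25, 0.07 and 0.23, then -0.19, 0.47 and -0.33). The long members SLC7A1 (7781 bases) and SLC7A5 (5357 bases) were high in gLuc 3 and gFBXW7_gKMT2D 2, and low in gLuc 1 and gFBXW7_gKMT2D 3. Not all long members did this, and JDP2 (11121 bases) and CHAC1 (6084 bases) were below their means in gLuc 3. These are descriptions across genes of 1 library each. Mitochondrially encoded mRNAs took 1.64%, 3.02% and 3.33% of counts in gLuc, 0.638%, 1.52% and 1.54% in gFBXW7, and 3.63%, 3.67% and 2.04% in gFBXW7_gKMT2D, so that share too was lowest in the group where the members stood highest. Its part in the members' levels was not tested.

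**Figure D4:**
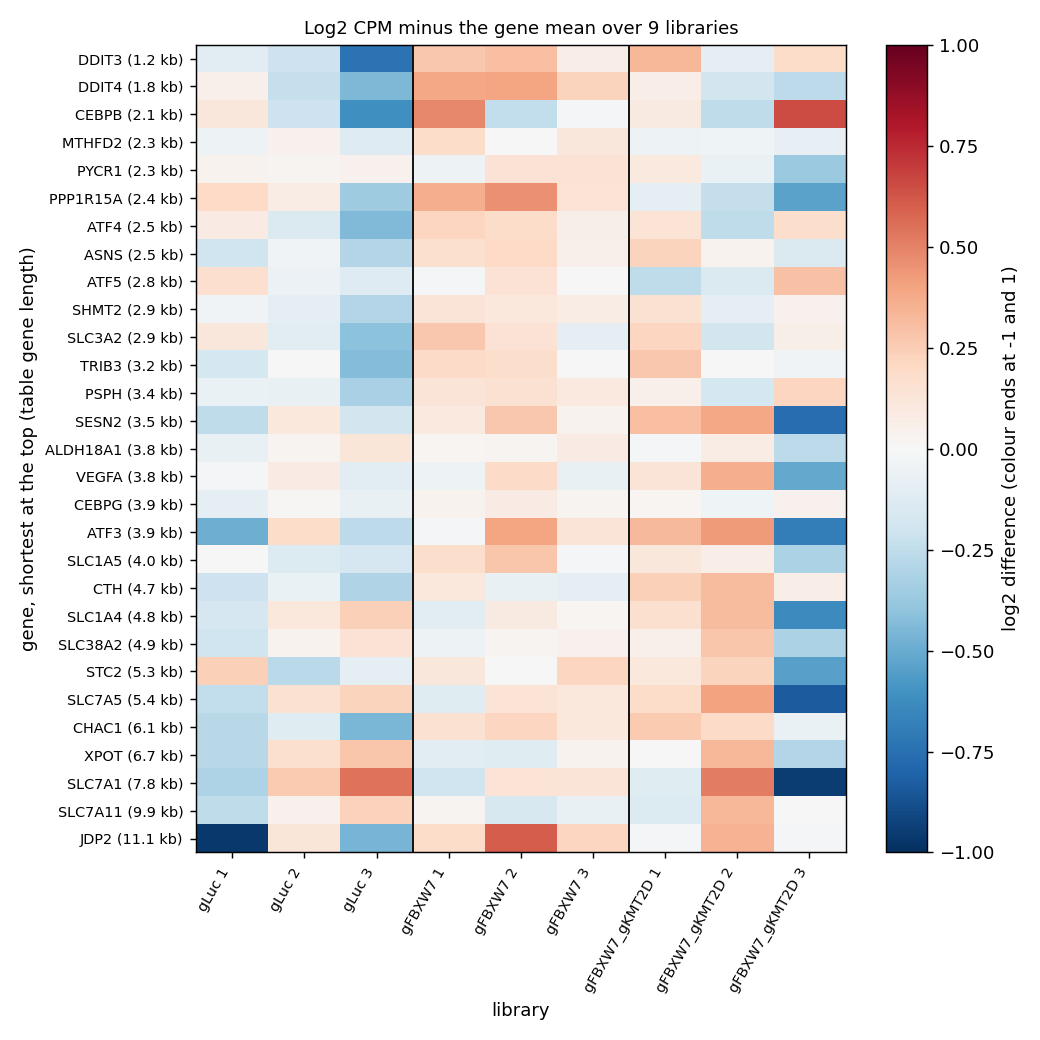
Log2 CPM minus the gene's mean over the 9 libraries (colour, ends at -1 and 1) for the 29 tested members, ordered from short to long by the table's gene length. Of the long genes in the lower rows, SLC7A1, SLC7A5, XPOT, SLC1A4 and SLC38A2 are high in gLuc 3 and gFBXW7_gKMT2D 2 and low in gFBXW7_gKMT2D 3. JDP2, CHAC1 and CTH, also long, lie below their means in gLuc 3. In the gFBXW7 libraries 20, 25 and 22 of 29 members lie above their mean.

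Counted library by library, 8, 16 and 8 of the 29 members lay above their 9-library mean in gLuc, 20, 25 and 22 in gFBXW7, and 22, 16 and 9 in gFBXW7_gKMT2D. Median deviations were -0.10, 0.01 and -0.19 in gLuc, 0.12, 0.14 and 0.05 in gFBXW7, and 0.10, 0.07 and -0.14 in gFBXW7_gKMT2D. The 3 gFBXW7 libraries were thus all above the gLuc libraries, and those of gFBXW7_gKMT2D spanned both. The 9 tested members whose promoter holds TGATGNAA had a median log2 fold change of 0.25 in gFBXW7 against gLuc (7 higher) and the 15 with a promoter lacking it 0.17 (13 higher). In gFBXW7_gKMT2D against gFBXW7 both medians were -0.07, and in gFBXW7_gKMT2D against gLuc they were 0.16 and 0.02. The difference between these classes was not tested.

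The cytosolic aminoacyl-tRNA synthetases, which charge tRNAs with amino acids, were abundant, with a median of 90.5 RPKM and AARS (256.6), GARS (214.8) and EPRS (148.5) at the top. Of 20, 0 were called in any comparison. In gFBXW7 against gLuc 13 had a higher fitted value, with a median log2 fold change of 0.07. The medians by role among the members were 0.31 for the transcription factors, 0.34 for the effectors, 0.17 for the synthesis genes, -0.01 for the transporters and 0.04 for the rest, and these differences were not tested. Every gFBXW7 library lay above every gLuc library for AARS, CARS and YARS, 3 of 20 against 4.37% of all genes. For AARS these were 891, 881 and 869.8 CPM in gLuc and 924, 1036 and 924 in gFBXW7, a log2 fold change of 0.13 (SE 0.19). The largest value was that of SARS (0.23) and the lowest that of VARS (-0.42), whose gene length in the table (26676 bases) exceeds its annotated span (18436), so its values are uncertain. In gFBXW7_gKMT2D against gLuc 10 of 20 were higher, with a median of -0.01 and a range from IARS (-0.17) to DARS (0.20). Without gFBXW7_gKMT2D 3, 15 were higher, the median was 0.09, and IARS and DARS turned to 0.10 and -0.14. In gFBXW7_gKMT2D against gFBXW7 7 of 20 were higher, with a median of -0.04 and a range from SARS (-0.27) to VARS (0.38). Without gFBXW7_gKMT2D 3, 12 were higher, the median was 0.02, and SARS was -0.17 and VARS 0.76.

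The mitochondrial synthetases, at a median of 9.22 RPKM, had medians of 0.04, -0.03 and -0.09 in the same order, with FARS2 highest in gFBXW7 against gLuc (0.23). Against gLuc the values in gFBXW7_gKMT2D ran from EARS2 (-0.25) to FARS2 (0.11), and against gFBXW7 from HARS2 (-0.18) to WARS2 (0.14). Without gFBXW7_gKMT2D 3 the medians of these comparisons were 0.06 and 0.04. EARS2 and FARS2 were then -0.00 and -0.08 against gLuc, and WARS2 0.05 against gFBXW7. The sensors and the eIF2 machinery upstream of ATF4 had medians of 0.02, 0.04 and 0.00 over 14 genes. EIF2S2, which encodes a subunit of eIF2, read 473, 334 and 245 CPM in gLuc, 461, 403 and 389 in gFBXW7, and 375, 242 and 906 in gFBXW7_gKMT2D. It had the highest value in each comparison (0.25, 0.53 and 0.28), but without gFBXW7_gKMT2D 3 the last 2 turned to -0.18 and -0.43, and the list's medians in them were -0.06 and -0.06. The double-stranded RNA sensor EIF2AK2 had the lowest in both comparisons with gLuc (-0.40 and -0.39), and EIF2AK3, the sensor of the endoplasmic reticulum, in the one with gFBXW7 (-0.18, and 0.0045 without gFBXW7_gKMT2D 3). None of these genes was called.

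**Figure D5:**
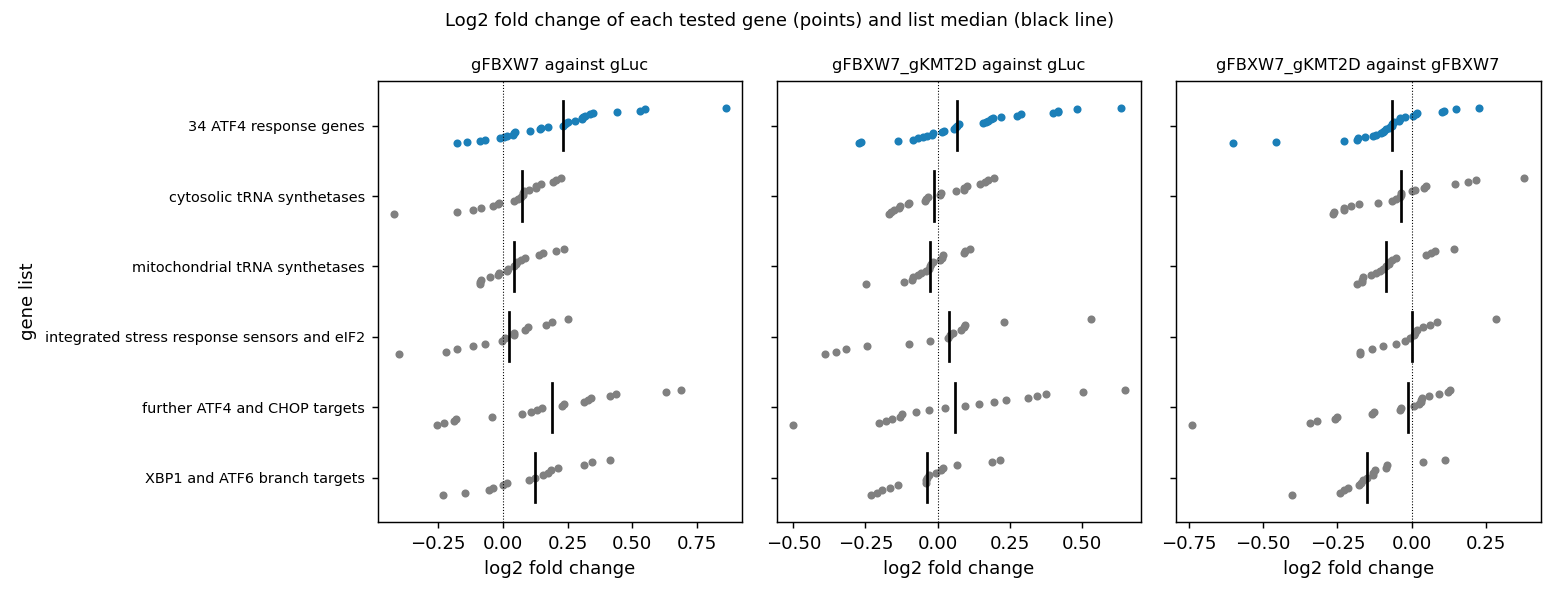
Log2 fold change of each tested gene (points) and list median (black line) for the 34 ATF4 response genes and the 5 companion lists in the 3 comparisons. In gFBXW7 against gLuc the medians of the ATF4 response genes (0.23) and of further ATF4 and CHOP targets (0.19) lie farthest right. Those of the XBP1 and ATF6 branch targets (0.13), cytosolic synthetases (0.07), mitochondrial synthetases (0.04) and sensors (0.02) follow.

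Of 21 further targets of ATF4 and CHOP outside the 34, 18 were tested and 0 called. In gFBXW7 against gLuc 13 of the 18 had a higher fitted value, with a median of 0.19, and 4 had an unadjusted p under 0.05 (INHBE, BBC3, PCK2 and GOT1), all higher, against 0.648% of all genes. INHBE, an activin subunit made under stress, read 1.75, 2.49 and 1.996 CPM in gLuc and 3.40, 3.33 and 3.31 in gFBXW7, without overlap (log2 fold change 0.69, SE 0.30), and ALDH1L2 was lowest (-0.25). The medians were 0.06 in gFBXW7_gKMT2D against gLuc, with INHBE highest (0.65), and -0.01 against gFBXW7, with MAP1LC3B highest (0.13). In the latter 2 genes were lower at an unadjusted p under 0.05, against 1.92% of all genes, and 3 of 18 lay below, against 5.21%. Without gFBXW7_gKMT2D 3 the medians were 0.16 and 0.05, and MAP1LC3B was 0.00037. TNFRSF10B, a death receptor induced by CHOP, was lowest in both (-0.50 and -0.74, and -0.29 and -0.53 without gFBXW7_gKMT2D 3). Targets of the neighbouring XBP1 and ATF6 branches of the unfolded protein response had medians of 0.13, -0.04 and -0.15 over 15 genes. CRELD2 was the highest of them in gFBXW7 against gLuc (0.41) and the lowest in gFBXW7_gKMT2D against gFBXW7 (-0.40), with SEL1L (-0.23) and ATF6 (0.11) at the other ends. Against gLuc, the values in gFBXW7_gKMT2D ran from EDEM1 (-0.23) to SDF2L1 (0.22). Without gFBXW7_gKMT2D 3 the medians of the comparisons with gFBXW7_gKMT2D were -0.09 and -0.25, and EDEM1 and SDF2L1 were -0.12 and -0.18 against gLuc.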

How the data were processed

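Per the file headers, the deposited table pairs read counts with RPKM for every gene in each library. The counts are whole numbers that the authors did not normalise. The authors' RPKM could be rebuilt from counts and gene lengths to within a relative difference of 5.0e-06. Trimmomatic, STAR, featureCounts, DESeq2 and GRCh38 are named in the submitters' processing notes, without versions, and whether counting used strand was not given in the sources used here. The counts were fitted in R 4.3.3 with edgeR 4.0.16 (filterByExpr with the groups, TMM, quasi-likelihood, group as the only term, all 9 libraries), and p-values were adjusted by Benjamini-Hochberg over 13262 genes at a threshold of 0.05. CPM used TMM-scaled totals, and log2 CPM a prior count of 2. Standard errors are the size of a fold change over the root of its F statistic. Libraries held 16337492 to 27076242 counts. The fit was tested on simulated data, which gave back 82% of 194 genes altered 3-fold for gFBXW7_gKMT2D against gLuc, with 9 false calls in 13090 genes. Changes as small as those of the members, and a trend with transcript length, were not simulated. The recovery and the false calls therefore do not carry over to the members' values. Floors of 3 reads cover counting error only.

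The members and lists were chosen with earlier results of these data known. Each member is named by its level. Full statistics are given for the 4 highest and 4 lowest fitted values among members averaging 2 or more on the log2 CPM scale, and library values for ATF4, ASNS, DDIT3, TRIB3, CHAC1 and members whose groups do not overlap. PPP1R15A, SLC7A1, SLC1A5, CEBPB, SLC7A5, AARS, INHBE, EIF2S2 and others with library values outside this rule were picked after their values were seen. Alternatives were DESeq2 1.42.0 (size factors and Wald test), upper quartile scaling, other filters, limma 3.58.1 on voom values and on log2(RPKM + 1), a replicate block, 1 surrogate variable (sva 3.50.0), the compared libraries alone, and each library left out. The companion lists without gFBXW7_gKMT2D 3 were added after the data were seen. Gene coordinates are from GENCODE v29 (GRCh38, 1-based), and promoters from RefSeq.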

Additional observations from a re-analysis of the deposited data

How the results depend on the processing

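No member was called under any alternative in any comparison, so the values are descriptions. Members with an unadjusted p under 0.05 numbered 2 to 14 higher over the alternatives for gFBXW7 against gLuc (2 without gLuc 3 or without gFBXW7 2, 14 with 1 surrogate variable). The share of all genes at that p was counted for the main fit only (0.648% higher). The counts under the alternatives have no such share beside them and are not read as results about the members. The lowest adjusted p of a member was 0.081 (PPP1R15A) with 1 surrogate variable, in gFBXW7_gKMT2D against gFBXW7, followed by 0.091 for DDIT4. The whole-table counts of called genes were 0, 7 and 8, with DESeq2's Wald test 1, 24 and 32, with 1 surrogate variable 0, 54 and 125, and with no filter 0, 21 and 33. The replicate numbers did not pair the samples throughout (9 same-number correlations from -0.59 to 0.45, 4 over 0.1). Between gLuc and gFBXW7 the same-number correlations were 0.45, 0.02 and 0.35, against -0.43 to 0.17 for different numbers. For gFBXW7_gKMT2D they were 0.01, 0.20 and -0.59 with gLuc, and -0.13, 0.23 and -0.25 with gFBXW7. With the replicate block, the medians were 0.24, 0.06 and -0.07, 7, 3 and 2 members had an unadjusted p under 0.05, and 0, 2 and 2 genes were called in all.

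The median log2 fold change of the members in gFBXW7 against gLuc was 0.12 with limma on log2(RPKM + 1), and ran from 0.11 to 0.25 when each library was left out. In gFBXW7_gKMT2D against gLuc it ran from 0.04 to 0.17 over left-out libraries, and was -0.01 on log2(RPKM + 1). In gFBXW7_gKMT2D against gFBXW7 it ran from -0.14 to -0.01. Members with no overlap between groups were also counted over left-out libraries, a choice added after seeing the data. In gFBXW7 against gLuc 9 to 15 lay above, as did 6.05% to 26.5% of all genes. The 15 came without gLuc 1, where the members below went from 0 to 5 (27.4% of all genes). In gFBXW7_gKMT2D against gLuc 3 to 8 lay above (4.7% to 12.1% of all genes) and 0 or 1 below (4.92% to 12.5%). In gFBXW7_gKMT2D against gFBXW7 3 to 7 lay below (7.18% to 14.7%) and 0 to 5 above (6.12% to 13.4%).

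Of 759 alternative values for 40 gene results, 740 kept their direction and 19 reversed, 15 of these with a library left out. With 1 surrogate variable, gFBXW7 against gLuc gave 0.17 for SLC7A1, 0.024 for XPOT, 0.0067 for SLC7A11 and 0.13 for SLC1A4. Leaving out each library in turn, values in gFBXW7 against gLuc ran from -0.38 to 0.017 for SLC7A1, -0.21 to 0.022 for SLC7A11 and -0.17 to 0.017 for SLC1A4, turning without gLuc 3. In gFBXW7_gKMT2D against gLuc they ran from -0.69 to 0.026 for SLC7A1 and -0.16 to 0.0068 for ALDH18A1, turning without gFBXW7_gKMT2D 3. In gFBXW7_gKMT2D against gFBXW7 they ran from -0.0016 to 0.24 for SLC7A11, -0.074 to 0.25 for XPOT, -0.19 to 0.0011 for ATF4 and -0.17 to 0.043 for DDIT3, turning without gFBXW7_gKMT2D 2, and from -0.17 to 0.34 for CEBPB, -0.14 to 0.020 for TRIB3 and -0.092 to 0.073 for CHAC1, turning without gFBXW7 2 and without gFBXW7_gKMT2D 3. The cause was not tested. The longer element TGATGNAAT occurred in the promoters of 0 of the 28 members.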
